A study of Mus musculus with 62 samples.

Results

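The hippocampus lies against the choroid plexus of the lateral ventricle, and a dissected hippocampus can carry some of it. The data described here are 47 adult hippocampus RNA-seq libraries out of 62 libraries in all, sorted by their level of Ttr, which encodes transthyretin, the main secreted product of choroid plexus epithelium. Ttr was taken as log2 CPM, where CPM are a gene's reads per 1e6 reads assigned to genes in the library. The 20 libraries with Ttr at 10 or more are called Ttr-high, the 21 libraries at 7 or less are called Ttr-low, and the 6 libraries between these limits were left out of that contrast. The libraries were selected on measured Ttr, so every difference between the Ttr-high and Ttr-low libraries is a description and carries no test.

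The mice came from trisomic Ts65Dn females, which carry an extra segment with part of mouse chromosome 16 and of chromosome 17, crossed to males heterozygous for Brwd1, a chromatin reader gene on the triplicated segment. Adult groups were euploid, Ts65Dn and Ts65Dn;Brwd1+/- (a Ts65Dn mouse with one functional Brwd1 copy removed) at 6 weeks of age, male and female, on a shared DBA/2J x B6EiC3Sn/J background, with 8 mice in each of the 6 groups except 7 male Ts65Dn mice. The other 15 libraries were E17.5 forebrain from 8 euploid and 7 Ts65Dn embryos. The paper describes its embryos as a mix of males and females, and the fits of these 15 libraries took no term for sex. No group received a treatment, and all hippocampi were taken whole and flash frozen.

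The choroid plexus makes cerebrospinal fluid. Its epithelial cells are modified ependymal cells, joined by tight junctions, that move sodium, chloride, bicarbonate and water into the ventricle, take up folate and vitamins from blood, and secrete carrier proteins and growth factors. Under the epithelium lies a stroma with fibroblasts, leaky capillaries and macrophages, and the transcription factor Otx2 keeps the epithelial identity in the adult.

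Libraries held between 33.6 M and 137.1 M assigned reads (M, 1e6 reads) in the adult and between 14.9 M and 62.6 M in the embryo. No library repeated another of its own label group (161 adult and 49 embryonic pairs), and repeats across label groups were not checked. 6 adult libraries went against their labels. A library labelled female euploid (Ttr-low) and one labelled male Ts65Dn (Ttr-high) had the Xist and Y-linked gene levels of the other sex. A library labelled male Ts65Dn (Ttr-low), one labelled female Ts65Dn;Brwd1+/- and a pair labelled male Ts65Dn;Brwd1+/- (all Ttr-high) lacked the raised expression of triplicated genes. Another pair of Ttr-high libraries, 1 female euploid and 1 female Ts65Dn;Brwd1+/-, stood apart in neuronal genes, with Grin2a at 2.11 and 1.70 log2 CPM while every other adult library was at 4.24 or above. Several results are given with and without some or all of these libraries. The fits with Ttr as a covariate and the ratios to Ttr were not repeated without the pair low in Grin2a.

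Ttr made up between 0.104% and 0.591% of all reads in the Ttr-high libraries, between 0.00105% and 0.0113% in the Ttr-low libraries and between 0.0147% and 0.099% in the others. On the log2 CPM scale Ttr was at 10.02 in the lowest Ttr-high library, 11.89 in the median and 12.53 in the highest. In the Ttr-low libraries it was at 3.39, 5.78 and 6.82. The members closest to the limits were a male Ts65Dn;Brwd1+/- library at 10.02 and a male euploid library at 6.82, and the closest libraries left out were 2 female Ts65Dn;Brwd1+/- libraries at 9.95 and 7.20. The remaining 4 libraries between the limits were at 8.63, 9.20, 9.81 and 9.84. No Ttr-low library was free of the transcript, and the lowest count of Ttr reads in any of them was 402.

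Each of the 6 adult label groups held Ttr-high and Ttr-low libraries. There were 4 Ttr-high and 3 Ttr-low male euploid libraries, 2 and 5 male Ts65Dn libraries, and 4 and 3 male Ts65Dn;Brwd1+/- libraries. Among females there were 4 and 4 euploid, 2 and 4 Ts65Dn, and 4 and 2 Ts65Dn;Brwd1+/- libraries. Ttr therefore spanned most of its range within each label group, as the plot of Ttr by labelled sex and genotype shows.

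**Figure D1:**
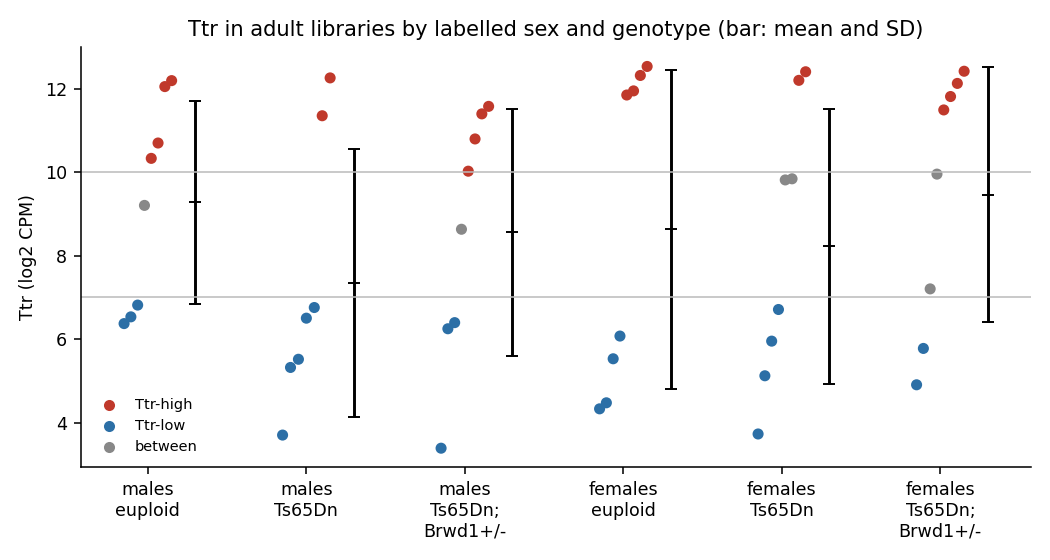
Level of Ttr (log2 CPM) in each of the 47 adult libraries by labelled sex and genotype, coloured by class, with the mean and SD of each group as a bar and grey lines at the limits of 7 and 10. Ttr-high and Ttr-low libraries occur in every group, and the group SDs run from 2.43 to 3.82.

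Genotype and sex labels were not used to sort the libraries, so Ttr was tested against them. Male Ts65Dn libraries had a mean Ttr of 7.34 ± 3.21 (SD, n = 7) and male euploid libraries 9.27 ± 2.43 (n = 8), a difference of -1.93 with an exact two-sided permutation p of 0.205 (adjusted p = 0.752 over the 5 Ttr comparisons, Benjamini-Hochberg). Male Ts65Dn;Brwd1+/- libraries were at 8.56 ± 2.95 (n = 8), which was 1.21 above male Ts65Dn (exact permutation p = 0.451, adjusted p = 0.752). Female Ts65Dn libraries were at 8.22 ± 3.29 (n = 8) and female euploid libraries at 8.63 ± 3.82 (n = 8), a difference of -0.41 (exact permutation p = 0.789, adjusted p = 0.789). Female Ts65Dn;Brwd1+/- libraries were at 9.46 ± 3.05 (n = 8), 1.24 above female Ts65Dn (exact permutation p = 0.431, adjusted p = 0.752). Over all genotypes the 24 female libraries were 0.33 above the 23 male libraries (permutation p = 0.71, adjusted p = 0.789). No difference passed an adjusted p of 0.1, and each was smaller than the SD within its groups. Without the 6 libraries against their labels the male Ts65Dn difference was -2.55 (exact permutation p = 0.106, adjusted p = 0.528).

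Of 17446 genes with enough reads for the fit, 76 including Ttr had every Ttr-high library above every Ttr-low library and a fitted log2 difference of at least 1, which is 0.436% of the genes. The fit took genotype and sex as covariates. No gene had every Ttr-high library below every Ttr-low library with a difference of that size. Without the groups being required to be apart, 369 genes (2.12%) were higher by at least 1, and over all 17446 genes the median difference was -0.01. Without the 6 libraries against their labels 84 genes were apart, all 76 among them, and without the 3 libraries that stood apart (the neuronal pair and the library against its sex label) 78 were, with all 76 shared. Of the 76 genes, 74 were protein-coding and 30, Ttr among them, belonged to 4 lists of choroid epithelium genes (53 genes), while 45 were on none of the lists and Igf2 was on the list of stromal genes. A total of 18 of the 76 would not have passed the read filter in the Ttr-low libraries alone, so they entered through the libraries in which they were high. Together the 75 genes other than Ttr held between 0.178% and 0.655% of reads in the Ttr-high libraries and between 0.0433% and 0.0808% in the Ttr-low libraries. In bulk tissue, fewer choroid cells and less RNA per cell cannot be told apart.

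The lists that name the epithelium's functions differed in their share of separate genes. Of 12 secreted and carrier proteins other than Ttr, 9 were apart and the median difference was 2.86. Of 25 transporters and channels 15 were apart (median 2.19), of 7 junction and keratin genes 2 (median 2.14), and of 8 transcription factors 3 (median 0.87). All 53 genes of the 4 lists were tested, and of the 52 other than Ttr 50 had a positive difference, where 47.8% of all genes had one.

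**Figure D2:**
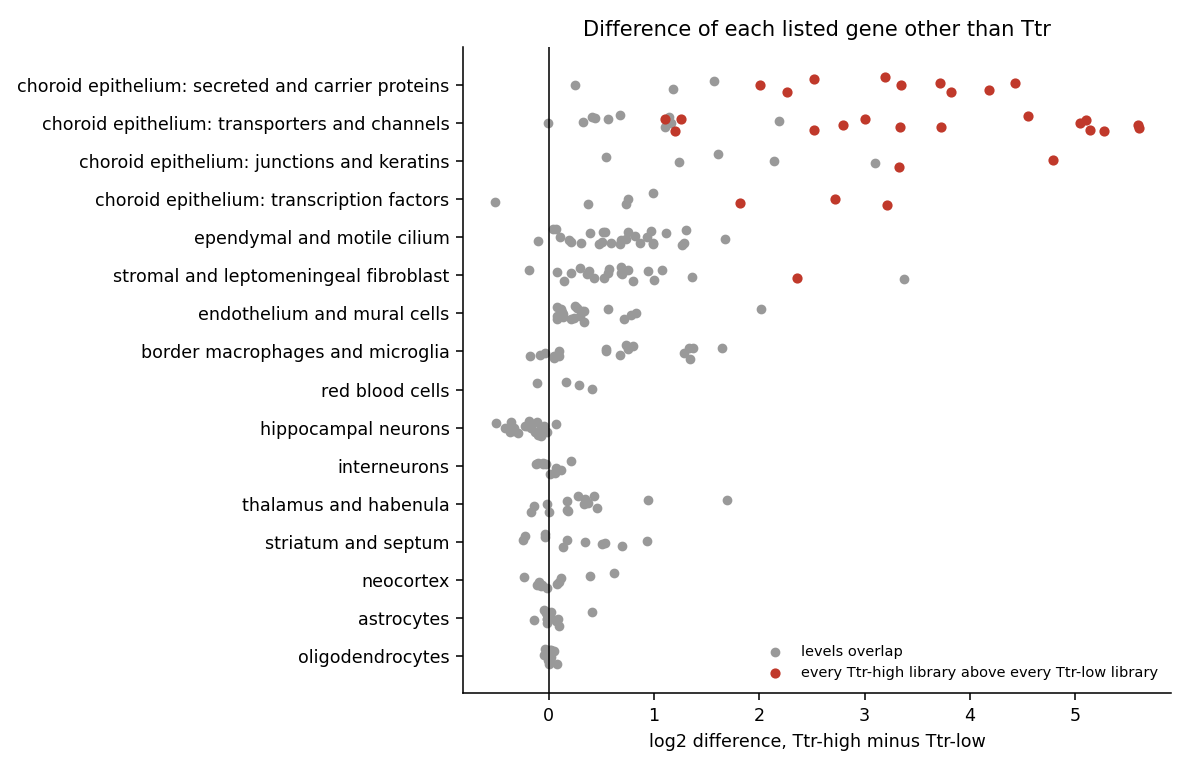
Fitted log2 difference, Ttr-high minus Ttr-low, of each listed gene other than Ttr, by list. Red points are genes with every Ttr-high library above every Ttr-low library, and they lie in the 4 choroid epithelium lists except for Igf2 in the stromal list. Hippocampal neuron genes lie mostly below 0 (median -0.17), while interneuron, astrocyte and oligodendrocyte genes lie near 0.

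Among the secreted and carrier proteins, F5 (coagulation factor V) was higher by 4.43, running from 4.14 to 6.34 log2 CPM in the Ttr-high libraries (median 5.52) and from -0.28 to 2.30 in the Ttr-low libraries (median 1.17). Ecrg4, a secreted peptide precursor of the plexus, was higher by 4.18, from 3.61 to 6.00 (median 5.39) against -0.65 to 2.15 (median 0.96). Both genes left a gap of more than 1 log2 unit between the groups. Sostdc1, a secreted BMP and WNT antagonist, was higher by 3.82, and Prlr, the prolactin receptor placed on this list, by 3.71. Enpp2 (autotaxin, which makes lysophosphatidic acid) was at 9.69 to 11.72 against 6.87 to 8.11, a difference of 3.34. Enpp2 is also made by oligodendrocytes, and its lowest Ttr-low level of 6.87 stood far above 0. The anti-ageing hormone gene Kl (Klotho) was higher by 2.52, the IGF binding protein gene Igfbp2 by 2.26, and the collagen genes Col8a2 and Col9a3 by 3.20 and 2.01. Genes of this list whose groups overlapped included Wfikkn2 (difference 1.57) and Clu (0.25), the last a clusterin gene with strong astrocyte expression.

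Ion and water transporters were among the genes with large differences. Ttr itself differed by 5.98. Slc4a5, a sodium bicarbonate cotransporter of the ventricular membrane, was higher by 5.60, from 3.47 to 5.83 log2 CPM in Ttr-high libraries (median 4.87) against -3.94 to 0.88 (median -0.84). Kcne2, a potassium channel subunit, was higher by 5.27, from 2.82 to 5.77 (median 4.48) against -2.80 to 0.63 (median -0.81). The inward rectifier gene Kcnj13 was higher by 5.14, from 2.96 to 5.54 (median 4.78) against -4.03 to 0.67 (median -0.52). All of these left at least 2 log2 units between the groups. Aqp1, the water channel of the ventricular membrane, was higher by 5.10, from 3.18 to 5.37 (median 4.80) against -2.26 to 0.93 (median -0.41). Folr1, the folate receptor that carries folate into the fluid, was higher by 5.05, from 3.27 to 6.03 (median 5.08) against -1.51 to 1.31 (median 0.10). The library with the highest Aqp1 among the Ttr-low ones, at 0.93, was the one labelled female euploid that went against its sex label, and its Ttr was at 4.33.

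Other transporters had smaller differences. Clic6, a chloride intracellular channel gene, was higher by 3.73, and the retinoid transporter Abca4 by 3.01. The anion exchanger Slc4a2 was higher by 1.26, the carbonic anhydrase Car12 by 1.20 and the copper transporter Slc31a1 by 1.11, each with no overlap. Slc4a2, for one, ran from 5.86 to 7.20 against 5.09 to 5.61. The sulfate transporter Slc13a4 was higher by 2.19 but its groups overlapped, since one Ttr-low library reached 4.27 and the lowest Ttr-high library was at 3.83. The cotransporter Slc12a2 (difference 0.41), the thyroid hormone transporter Slco1c1 (0.56) and the sodium pump subunit Atp1b1 (-0.004) are abundant outside the plexus, and Atp1b1 ran from 10.77 to 11.11 against 10.72 to 11.13. Slco1a5 was apart by 3.33 at low levels, and its reads are uncertain because it has near-identical paralogs.

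Among junction and keratin genes, Cldn2, the claudin of leaky epithelia that passes cations and water, was higher by 4.79, from 2.89 to 5.32 (median 4.68) against -1.34 to 1.48 (median -0.34). Krt18, a keratin of simple epithelia, was higher by 3.33 with no overlap. Its partner Krt8 was higher by 3.10 and overlapped, as did Cldn1 (2.14), Cldn3 (1.60), Cdh1 (1.24) and Cdhr4 (0.55).

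Among transcription factors, Otx2 was higher by 3.21, from 1.98 to 4.66 (median 3.80) against -3.09 to 1.68 (median 0.36). Lmx1a, a factor of the roof plate from which the plexus forms, was higher by 2.71, and Msx1, another roof plate factor, by 1.81. Otx2os1, a non-coding gene beside Otx2, was higher by 4.24. Foxj1, which drives motile cilia, was higher by 0.99 with overlap, and Rfx2 (0.38), Zic1 (0.74) and Lmx1b (0.75) also overlapped. Meis1 alone in this list was lower, by -0.51. A single Ttr-low library held Meis1 at 4.60 while the next highest was at 1.42, and it was the same library labelled female euploid that went against its sex label. With that library and the pair that stood apart in neuronal genes left out, the difference of Meis1 was 0.05.

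The 15 genes other than Ttr with the largest differences among those apart were Defb11 (5.67), 4933429O19Rik (5.65), Slc4a5, Tmem72 (5.60), Tmprss11a (5.56), Kcne2, Kcnj13, Aqp1, Folr1, Cdh3 (4.83), Ldc1 (4.81), Cldn2, Wfdc2 (4.69), Steap1 (4.55) and F5. Defb11 is a beta-defensin gene and Wfdc2 a secreted protease inhibitor gene, Cdh3 encodes P-cadherin and Steap1 a metalloreductase. Defb11 and 4933429O19Rik had 15 and 9 reads in all 21 Ttr-low libraries together, so their fitted differences depend on the small count added for fitting. Ldc1 had 26 reads there, with 10 libraries at 0, and Tmprss11a 79, with 4 at 0. These genes and Tmem72, Cdh3, Wfdc2 and Steap1 would not have passed the read filter in the Ttr-low libraries alone. The same holds for Krt18, Lmx1a, Otx2os1, Slc28a3, Slco1a5 and Prr32, named elsewhere. None of the 76 genes was at 0 reads in every Ttr-low library. In RefSeq, 35 of the 76 overlap another annotated gene, such as Kcnj13, which lies within Gigyf2, and with libraries that do not mark strand the reads of such pairs cannot be told apart.

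The 45 unlisted genes had varied known roles, and some of them, picked after their values were seen, are given here as examples. Transport genes among them were the calcium channel gene Trpv4 (difference 3.71), the nucleoside transporter Slc28a3 (4.004), the lactate transporter Slc16a8 (3.29), the glucose transporter Slc2a12 (2.30) and the sugar phosphate transporter Slc37a2 (1.58). Extracellular matrix genes were Col8a1 (4.06), Col4a4 (2.29), Pcolce (2.40) and Nid2 (1.29). Junction genes were Tjp3 (1.69), Cgnl1 (1.66) and Perp (1.72). Secreted or surface enzymes were Ace, the angiotensin converting enzyme (2.80), the phospholipase Pla2g5 (2.43), the heparan sulfatase Sulf1 (2.86) and the paraoxonase Pon3 (1.90), and Lbp, which binds lipopolysaccharide, was higher by 3.04. Ace ran from 5.30 to 7.13 log2 CPM in the Ttr-high libraries against 3.06 to 4.38.

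The 6 libraries between the limits, which played no part in choosing these genes, filled the gap. The median of these 6 lay between the medians of the Ttr-high and the Ttr-low libraries for 74 of the 75 genes other than Ttr, the exception being Car12. The 6 libraries are intermediate in Ttr by the sorting, and the share over all genes was not counted, so this is a description. Folr1 ran from 0.64 to 3.09 in them, Aqp1 from 0.58 to 2.93 and Enpp2 from 8.25 to 9.73, and the lowest Folr1 belonged to the library with the lowest Ttr of the 6. The plot of choroid genes against Ttr shows a rise with Ttr through the upper range and more scatter below the lower limit.

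**Figure D3:**
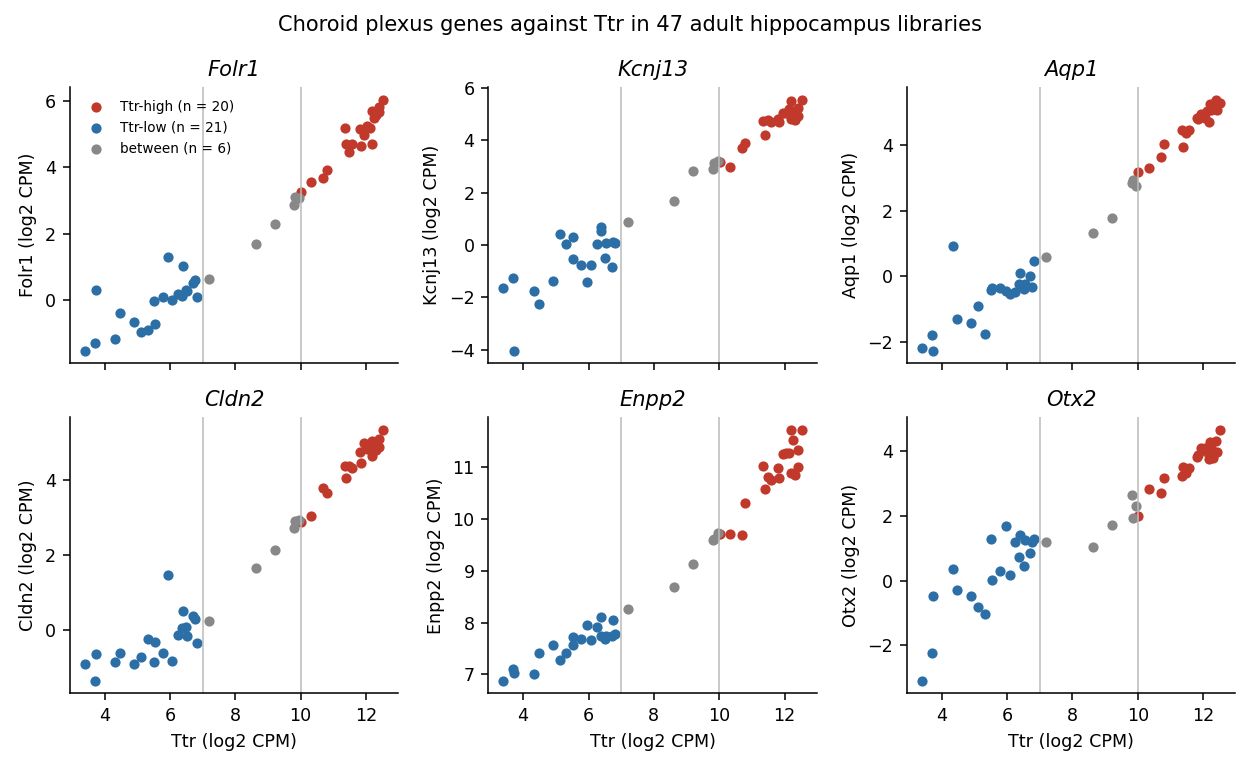
Level of 6 choroid genes (log2 CPM, vertical axis of each panel) against Ttr (log2 CPM, horizontal axis) in the 47 adult libraries, with grey lines at the limits of 7 and 10. For each gene the median of the libraries between the limits lies between the medians of the other classes, while single libraries overlap them. In the Ttr-low libraries Enpp2 stays at or above 6.87 while Folr1 and Aqp1 fall to -1.51 and -2.26.

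Within the 20 Ttr-high libraries most of the 76 genes kept a steadier ratio to Ttr than their own level. The SD of the log2 ratio to Ttr was below the SD of the gene itself for 68 of 75 genes, with medians of 0.37 and 0.63. The SD of the ratio was 0.13 for Ecrg4, 0.19 for Aqp1, 0.19 for Cldn2, 0.25 for Otx2, 0.26 for Kcnj13 and 0.27 for Folr1. Ratios varied more for Prlr (0.62), Tmem72 (0.65) and Defb11 (1.005). These libraries share the sorting on Ttr, and no test was made. The genes were themselves chosen from groups sorted on Ttr, and the share over all genes was not counted. The 68 of 75 is therefore a description from which no conclusion is drawn.

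Other cell types of the ventricle wall moved less. Of 28 ependymal and motile cilium genes none was apart, 27 had a positive difference against 47.8% of all genes, and the median was 0.68. Spag16 was higher by 1.67 and Tekt1, a cilium microtubule gene, by 1.26, and Ccdc153 and Tmem212, which mark ependyma, by 0.54 and 0.50. The summed level of this list ran from 150 to 385 CPM in Ttr-high libraries and from 94.7 to 230 CPM in Ttr-low libraries. Choroid epithelium and ependyma share some cilium genes, and the part of ependyma in these differences was not tested.

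Stromal and leptomeningeal fibroblast genes were higher in 21 of 22 cases with a median of 0.63, and the list's summed level ran from 699 to 1894 CPM against 451 to 1459 CPM. Igf2, a growth factor gene also expressed by choroid plexus, was apart by 2.36, from 7.11 to 8.99 against 5.37 to 6.84. The BMP gene Bmp6 was higher by 1.36 and the collagen genes Col3a1, Col1a2 and Col1a1 by 1.005, 0.94 and 0.53, all with overlap. Dpep1 had a difference of 3.38 at low levels and overlapped. Endothelial and mural genes had a median of 0.26, with all 20 positive. Among them Esm1 was higher by 2.02, Plvap, a gene of fenestrated capillaries, by 0.34, and the blood-brain barrier claudin gene Cldn5 by 0.21. Red blood cell genes had a median of 0.23 over the 4 tested.

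The macrophage and microglial list held genes with both larger and smaller differences. The antigen presentation genes H2-Aa, Cd74, H2-Eb1 and H2-Ab1 were higher by 1.64, 1.37, 1.34 and 1.28, and the border macrophage genes Lyve1, Mrc1 and Cd163 by 0.75, 0.68 and 0.55, all with overlap. The microglial genes Tmem119, P2ry12, Csf1r and Cx3cr1 lay between -0.04 and 0.10, and Aif1 and Sall1 were at -0.09 and -0.18. Cd74 ran from 0.63 to 4.08 in the Ttr-high and from -0.48 to 3.15 in the Ttr-low libraries. Over the 18 genes tested the median was 0.61 and none was apart.

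Neural tissue genes had small differences, and those of hippocampal neuron genes were nearly all negative. Of 21 hippocampal neuron genes 1 was positive, against 47.8% of all genes, with a median of -0.17. The list's summed level ran from 10191 to 14370 CPM in Ttr-high libraries (median 11968) and from 10960 to 14637 CPM in Ttr-low libraries (median 12979). Prox1, the dentate granule cell factor, had a difference of -0.42 and the CA1 gene Fibcd1 of -0.02. Without the pair that stood apart in neuronal genes and the library labelled female euploid that went against its sex label, the list's median was -0.15, with 1 of 21 positive, and Prox1 was at -0.33. Astrocyte, oligodendrocyte, interneuron and neocortex genes had medians of 0.00, 0.01, -0.01 and -0.01. Genes of the thalamus and habenula, which also lie beside the plexus, had a median of 0.27, and striatum and septum genes 0.17. In the thalamus and habenula list 12 of 15 genes were positive, and the differences ran from -0.17 to 1.70. The largest was that of Gbx2, the only gene of the 15 above 1. This list's summed level ran from 331.7 to 534.8 CPM in Ttr-high libraries and from 345.1 to 530.3 CPM in Ttr-low libraries, so the groups overlapped. None of these lists held a gene that was apart. Brwd1 itself had a difference of -0.20 with overlap.

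The promoters of the 76 genes were searched for TAATCC, the core sequence that Otx2 binds, and its reverse complement GGATTA. The search covered the 250 bases before each RefSeq start (GRCm38.p6). The genes were chosen from groups sorted on Ttr, so their shared rise follows from that choice, and shared regulation was not tested. Promoter sequence was matched for 56 of the 76 genes. The letters occurred before at least one start in 6 of the 56 genes (10.7%) and in 7.21% of all 27025 genes, and the 6 genes were Abca4, Ace, Ldc1, Otx2, Pla2g5 and Rbm47. A pair with the letters, from Otx2 and Ace, and a pair without, from Kcnj13 and Kcne2, are shown so that the windows can be compared. They lie at chr14:48665110-48665359 (minus strand), chr11:105967698-105967947 (plus strand), chr1:87394730-87394979 (minus strand) and chr16:92292139-92292388 (plus strand), all read 5′ to 3′ with the searched letters in capitals. A match is a description and not a binding site.
Otx2: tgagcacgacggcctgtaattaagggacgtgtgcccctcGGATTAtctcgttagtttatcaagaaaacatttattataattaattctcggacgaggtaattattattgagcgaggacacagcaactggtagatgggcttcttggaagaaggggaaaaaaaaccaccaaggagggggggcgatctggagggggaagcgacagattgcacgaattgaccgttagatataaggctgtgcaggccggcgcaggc
Ace: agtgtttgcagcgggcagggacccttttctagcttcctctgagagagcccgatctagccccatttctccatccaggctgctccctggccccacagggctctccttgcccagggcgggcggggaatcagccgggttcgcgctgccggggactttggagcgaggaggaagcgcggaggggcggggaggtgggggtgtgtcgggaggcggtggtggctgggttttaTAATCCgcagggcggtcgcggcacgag
Kcnj13: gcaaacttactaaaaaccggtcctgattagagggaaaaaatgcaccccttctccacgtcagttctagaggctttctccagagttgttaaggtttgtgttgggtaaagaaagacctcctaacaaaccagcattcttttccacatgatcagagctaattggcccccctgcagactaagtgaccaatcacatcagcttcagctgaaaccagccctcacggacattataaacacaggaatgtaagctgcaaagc
Kcne2: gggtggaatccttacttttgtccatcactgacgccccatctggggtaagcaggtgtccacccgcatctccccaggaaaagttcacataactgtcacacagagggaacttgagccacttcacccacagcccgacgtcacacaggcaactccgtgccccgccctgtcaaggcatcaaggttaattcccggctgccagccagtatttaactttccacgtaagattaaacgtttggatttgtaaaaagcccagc

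The label contrasts ask what this variation does to comparisons of genotype. In edgeR quasi-likelihood fits with Benjamini-Hochberg adjustment, none of the 52 choroid list genes tested passed an adjusted p of 0.1 in Ts65Dn against euploid males (134 of 16851 genes called, 0.795%), in Ts65Dn;Brwd1+/- against Ts65Dn males (0 called, 0%), in Ts65Dn against euploid females (543 of 17146 called, 3.17%) or in Ts65Dn;Brwd1+/- against Ts65Dn females (0 called, 0%). The contrasts with 0 genes called had 1261 genes (males) and 604 genes (females) at an unadjusted p under 0.05, and DESeq2 called 1 and 14 genes in them. At an unadjusted p under 0.05 the choroid genes numbered 1, 0, 2 and 0, and DESeq2 called 0, 0, 1 and 0. The gene DESeq2 called was Atp1b1, at 0.12. Leaving out the female euploid library that stood apart in neuronal genes raised the female Ts65Dn count from 543 to 1603, with 1 choroid list gene among them, Meis1, at -1.60. The library labelled female euploid against its sex label, in which Meis1 was at 4.60, remained in that fit. Leaving out the libraries against their labels gave 259 genes in males, with Clu among them, and 327 in females, with no choroid list gene among them. None passed in the sex by genotype interaction either (0 of 17427 genes called by edgeR, 0%, with 1935 at an unadjusted p under 0.05 and 85 called by DESeq2), with 2 choroid genes at an unadjusted p under 0.05 and 0 called by DESeq2.

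The errors of these genes were large. The median standard error of a log2 fold change over the choroid genes was 0.59 for both male contrasts and 0.61 for both female contrasts. Folr1, for example, had a log2 fold change of 0.03 with a standard error of 1.08 between Ts65Dn and euploid males and of -0.45 with a standard error of 1.08 between females. Differences of that size were not detectable at this spread. With Ttr added to the fit as a covariate the median standard error fell to 0.19 in males and 0.20 in females. Ttr itself was left out of that fit.

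With that covariate 2 choroid genes passed in Ts65Dn against euploid females, Kcne2 and Clic6, where 889 of 17468 genes were called (5.09%). Both lie in the triplicated part of chromosome 16, Kcne2 at chr16:92292389-92298133 and Clic6 at chr16:92498147-92541241, and they were the only genes of the choroid lists and of the 76 in the triplicated segments. Kcne2 was higher in Ts65Dn by 1.01 (standard error 0.16, adjusted p = 0.000881, edgeR) and Clic6 by 0.73 (standard error 0.20, adjusted p = 0.0495, edgeR). Without the covariate the same contrast gave 0.47 with a standard error of 1.10 for Kcne2 and 0.25 with a standard error of 0.92 for Clic6. In males Kcne2 was higher by 0.85 (adjusted p = 0.102) and Clic6 by 0.54 (adjusted p = 0.476), where 88 of 17197 genes were called (0.512%), so neither passed 0.1.

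With the covariate and without the libraries against their labels, male Kcne2 was higher by 0.92 (adjusted p = 0.00991, edgeR) and Clic6 by 0.53 (adjusted p = 0.532, edgeR). The female values were 1.02 (adjusted p = 0.000796, edgeR) and 0.78 (adjusted p = 0.0571, edgeR). Without the covariate and without these libraries, male Kcne2 was at -0.43 (standard error 1.21) and Clic6 at -0.48 (standard error 0.95). With all male libraries they were at 0.46 and 0.23. Clu then also passed in males, lower by -0.22 with the covariate (adjusted p = 0.0306) and by -0.28 without it (adjusted p = 0.00964). In Ts65Dn;Brwd1+/- against Ts65Dn, Kcne2 and Clic6 did not pass with the covariate in either sex, with or without the libraries against their labels. With all libraries, female Kcne2 was at -0.42 (standard error 0.15, unadjusted p = 0.012, edgeR) and Clic6 at -0.29, where 0 genes were called. Male values were -0.20 and -0.10. Without the libraries against their labels, Kcne2 was at -0.35 in females (unadjusted p = 0.033, edgeR) and -0.004 in males.

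The ratio of Kcne2 to Ttr in single Ttr-high libraries showed the same order, described here after the fits were seen and with no test. On the log2 scale Kcne2 minus Ttr ran from -7.97 to -7.32 in the 8 euploid libraries and from -7.13 to -6.37 in the 9 libraries labelled Ts65Dn or Ts65Dn;Brwd1+/- with raised triplicated genes. In the 3 libraries labelled Ts65Dn;Brwd1+/- without raised triplicated genes it ran from -7.84 to -7.31, beside the euploid libraries. The first sets did not overlap. Clic6 minus Ttr ran from -6.22 to -5.17, from -5.36 to -4.56 and from -5.53 to -5.28, with 1 trisomic library among the euploid levels. That library was the female Ts65Dn;Brwd1+/- member of the pair that stood apart in neuronal genes. The pair also held the lowest euploid (-7.97) and the lowest trisomic (-7.13) values of Kcne2 minus Ttr. Aqp1 minus Ttr, a gene of chromosome 6, ran from -7.50 to -6.996, from -7.36 to -6.84 and from -7.44 to -6.78, and all 3 sets overlapped.

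**Figure D4:**
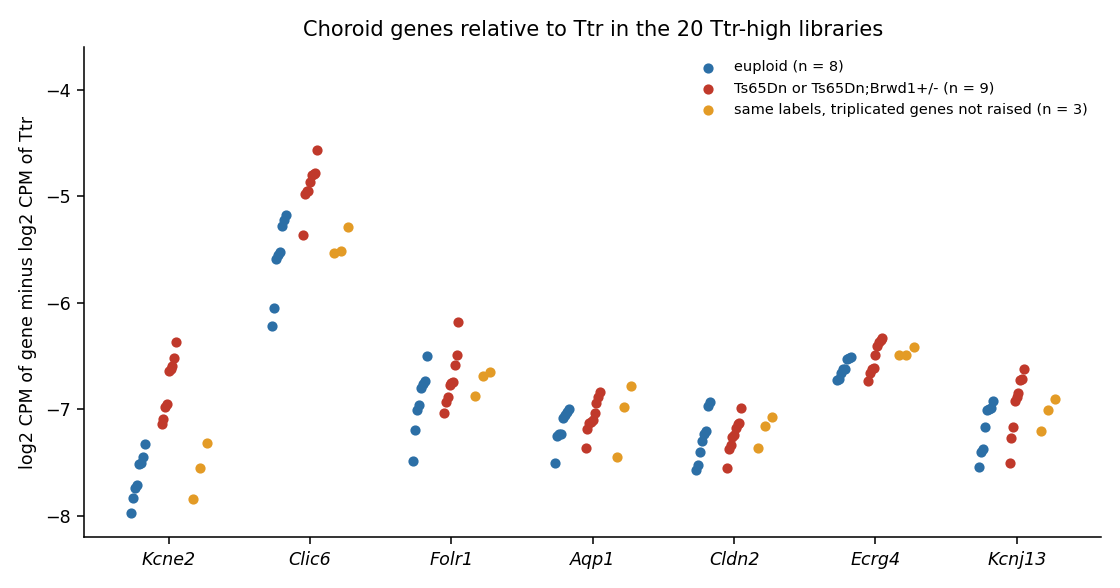
Level of 7 choroid genes relative to Ttr (log2 CPM of the gene minus log2 CPM of Ttr) in each of the 20 Ttr-high libraries, by label. Kcne2 and Clic6, the genes on the triplicated segment, are shifted up in the 9 trisomic libraries. For these genes the 3 libraries with trisomic labels but no raised triplicated genes sit with the 8 euploid libraries. For the other 5 genes the euploid and the 9 trisomic libraries overlap. Ecrg4 does not overlap between the 3 libraries (-6.49 to -6.41) and the 8 euploid libraries (-6.72 to -6.51).

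The E17.5 forebrain libraries took no part in the sorting and gave a test of which genes follow Ttr. In 14 of 15 libraries Ttr was between 8.96 and 10.42, and in 1 euploid library it was at 4.29. In an edgeR fit of each gene on Ttr with genotype as a covariate, 23 of 17304 genes rose with Ttr at an adjusted p under 0.1 (0.133%), and 1 fell (0.00578%), Acat3, an acetyl-CoA acetyltransferase gene. Of the 52 choroid list genes tested 16 were called, all positive, and 45 of 52 slopes were positive. Of the 73 genes apart in the adult and tested here 17 were called (23.3% of the 73 and 70.8% of the 24 called).

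Folr1 had the smallest p, with a slope of 0.89 log2 units per log2 unit of Ttr (standard error 0.06, adjusted p = 6.17e-07, edgeR). It was at -1.35 in the library low in Ttr and between 2.77 and 4.21 in the other 14. Kcne2 rose by 0.77 per unit, Clic6 by 0.57, Calml4, a calmodulin-like gene of epithelial brush borders, by 0.56, Car12 by 0.53 and Ecrg4 by 0.43. Cldn2 (0.59), Aqp1 (0.48), Kcnj13 (0.61), Slc4a5 (0.57), Tmem72 (1.06), Wfikkn2 (0.44), Cldn1 (0.30), Car14 (0.33), Sostdc1 (0.38) and Msx1 (0.32) completed the list members called. Prr32, with the seventh smallest p, rose by 0.80, and Slco1a4, a transporter on the endothelial list with close paralogs, by 0.58.

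Most of these calls rested on 1 embryo. Without the euploid library low in Ttr, 2 genes were called among 17209 (0.0116%), Kcne2 with a slope of 0.92 (adjusted p = 0.0266, edgeR) and Folr1 with a slope of 0.89 (adjusted p = 0.0396, edgeR), both choroid list genes. Clic6 then had a slope of 0.62 (adjusted p = 0.135) and Cldn2 of 0.93 (adjusted p = 0.206). At an unadjusted p under 0.05, 20 of 52 choroid genes had a positive slope and 1, Meis1, a negative one, against 1.05% of all genes with a positive slope at that p.

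Other genes that were apart in the adult were not called in the embryo. Enpp2 had a slope of 0.05 and an adjusted p of 1, and it was at 5.47 in the library low in Ttr against 5.27 to 6.70 in the others. Otx2 was at 4.54 in that library and between 3.25 and 6.11 in the others, and Igfbp2 at 7.41 against 7.56 to 8.53. Enpp2 and Otx2 in that library were thus within the range of the others, and Igfbp2 was below it.

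**Figure D5:**
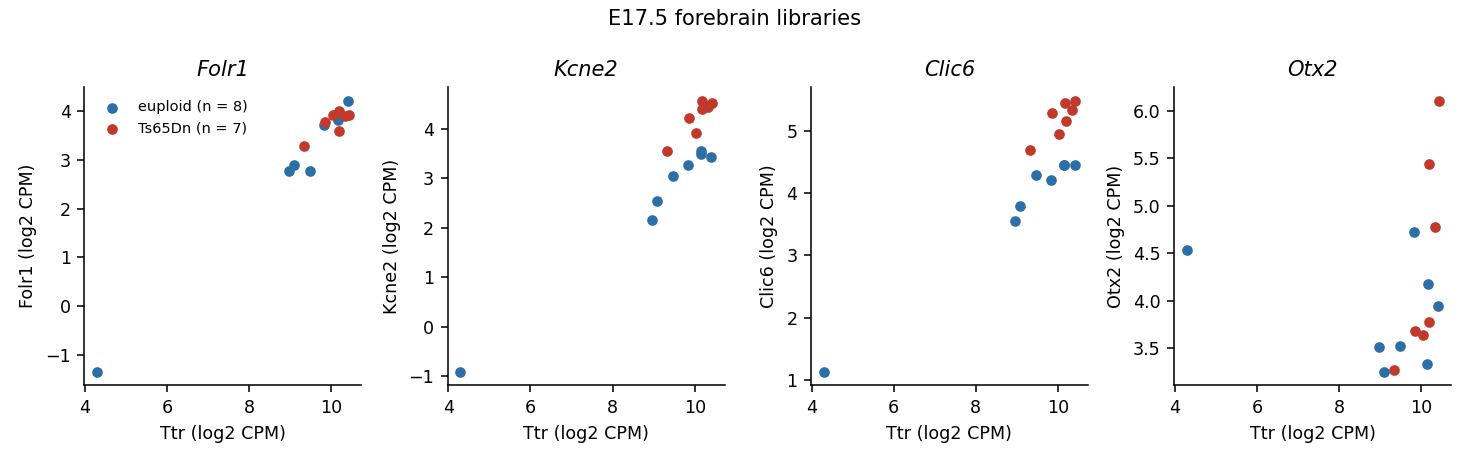
Level of Folr1, Kcne2, Clic6 and Otx2 (log2 CPM) against Ttr (log2 CPM) in the 15 E17.5 forebrain libraries, coloured by genotype. Folr1, Kcne2 and Clic6 fall with Ttr in the 1 library at 4.29 and Otx2 does not, and Kcne2 and Clic6 are higher in the Ts65Dn libraries at a given Ttr.

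The genotype term of the same embryonic fit was read for the triplicated genes after the adult values were seen. At a given Ttr, Kcne2 was higher in Ts65Dn by 0.91 (standard error 0.11, adjusted p = 0.000225, edgeR, n = 15) and Clic6 by 0.84 (standard error 0.09, adjusted p = 9.35e-05, edgeR), where 129 of 17304 genes were called (0.745%). Without the library low in Ttr the values were 0.86 (adjusted p = 0.000842) and 0.82 (adjusted p = 0.000477), with 0.895% of genes called. The embryo titles carry a first number that 7 and 8 libraries share, each with both genotypes, and with that number as a covariate the values were 0.88 (adjusted p = 0.000419) and 0.82 (adjusted p = 0.000178), with 0.624% of genes called. Enpp2 was the only other choroid list gene called, higher by 0.55 (adjusted p = 0.0306). The highest euploid level of Kcne2 was 3.556 and the lowest Ts65Dn level 3.563 log2 CPM, and for Clic6 the levels were 4.45 and 4.70, so the groups did not overlap.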

How the data were processed

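Whole hippocampus from 6-week-old mice and E17.5 forebrain were sequenced as single reads from unstranded polyA libraries. The authors deposited raw read counts per gene (Entrez IDs, build mm10), made with HISAT2 and featureCounts, and the submitters' processing notes give HISAT2 2.1.0, featureCounts 2.0.1 and the builds mm10 and mm9. Counts per sample summed to 33.6 M to 137.1 M (adult) and 14.9 M to 62.6 M (embryo). Gene symbols, positions and promoters came from RefSeq GRCm38.p6, matched for 25275 of 27179 genes.

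Values are log2 CPM on column totals with a prior count of 0.5. Fits used edgeR 4.0.16 quasi-likelihood tests (TMM, filterByExpr with a minimum count of 10, robust) with Benjamini-Hochberg adjustment at 0.1, and DESeq2 1.42.0 as an alternative. Ttr was compared by permutation tests (scipy), exact below 10 libraries a group and with 100000 resamples for the sexes. The Ttr-high and Ttr-low libraries were chosen on Ttr, so their contrast has no p-value. The members and gene lists were chosen with earlier results of these data known. Lists are described by counts and medians. Genes named from the high against low contrast are the choroid lists, the 15 largest positive differences among genes with no overlap (none was apart in the negative direction), the list markers and, chosen after their values were seen, examples of the remaining genes that were apart. Slope genes named are the 8 with the smallest p and list members. The slope on Ttr was not fitted in the 6 adult libraries between the limits, fewer than the 10 required. Triplicated genes were those of chromosome 16 from Mrpl39 onwards and those of chromosome 17 up to Pde10a. A library counted as lacking the raised expression when the median of its genes was under 0.25 above the euploid mean (log2). The labels name separate samples and no litters, and what the first number shared by E17.5 titles stands for is not given in the sources used here, so p-values measure the spread between these samples. Scripts were tested on simulated data.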

Additional observations from a re-analysis of the deposited data

Results flagged for a closer look

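Ttr and the summed levels of the 4 choroid lists and of the ependymal, stromal, macrophage and hippocampal neuron lists were screened for a sample far from its group in each of 8 label groups, 72 checks in all, of which 4 stood out. Chance gives about 1 in 20. In euploid E17.5 forebrain, 1 library had Ttr at 4.29 log2 CPM while the other 7 were between 8.96 and 10.40, and the summed level of its choroid secreted and carrier genes was 8.53 (log2 CPM) against 9.98 to 10.94. Another euploid E17.5 library had the stromal and leptomeningeal list at 11.51 against 9.45 to 10.38 in the others. A female Ts65Dn library, which was Ttr-low, had the hippocampal neuron list at 13.81 against 13.48 to 13.61.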

How the results depend on the processing

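Over all results and alternatives, 299 values kept their direction and side of the threshold or stayed within the allowed range and 17 moved. Among these values, the one that changed sign was the difference of Meis1, a gene that was not apart, from -0.51 to 0.07 without the libraries against their labels. Fold changes of single genes in the label contrasts were not in this count. Without those libraries and without the Ttr covariate, the male Ts65Dn fold change went from 0.46 to -0.43 for Kcne2 and from 0.23 to -0.48 for Clic6. The number of genes apart was 41 with Ttr limits of 9 and 8, 161 with limits of 11 and 6, and 232 in females alone, while males alone gave 89. For the choroid lists in Ts65Dn against euploid females, DESeq2 called 1 gene (Atp1b1), and 4 were called without the Ttr-high libraries (Krt8, Krt18, Slc5a5 and Meis1, where 1876 of all genes were called), 2 with Ttr as a covariate and 1 without the female euploid library that stood apart in neuronal genes (Meis1, where 1603 of all genes were called). In males 1 was called without the libraries against their labels (Clu), and in the interaction 1 without the Ttr-high libraries (Krt18, where 218 of 17350 genes were called). The cause of these changes was not tested. In the E17.5 slopes, DESeq2 called 39 genes, the fit with the first number of the embryo titles as a covariate 22 (15 of them choroid list genes), the fit with the replicate block 14, the fit without the euploid library low in Ttr 2 (both choroid list genes), and the fit without the 2 libraries farthest from the median Ttr 0. At an unadjusted p under 0.05 that last fit had 487 genes. Replicate numbers did not pair the E17.5 libraries, since over 7 pairs the correlation of deviations ran from -0.22 to 0.30 and 3 exceeded 0.1. No paired analysis was possible for the adult Ttr tests because the mice share only a number given in order. Alternatives that leave out the libraries against their labels, the library low in Ttr or those that stood apart, that leave Ttr out of the lists, or that add the title number to the genotype term were chosen after seeing the data. Counts over all genes in Ts65Dn against euploid differed by more than 1.5 times under several alternatives. With DESeq2 they were 241 in males (134 by edgeR) and 1033 in females (543 by edgeR). Without the Ttr-high libraries they were 15 in males and 1876 in females, and with Ttr as a covariate 88 and 889. Without the libraries against their labels they were 259 and 327. The female count was 1603 without the female euploid library that stood apart in neuronal genes. In the same libraries at the same depth, the median standard error of the choroid genes was 0.59 in males and 0.61 in females, and 0.19 and 0.20 with Ttr as a covariate.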

Other observations

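The library labelled female euploid that went against its sex label also held Sall1, a microglial identity factor, at 6.97 log2 CPM and the cilium gene Dnah11 at 4.82, and the next highest adult libraries were at 5.33 and 3.40. The pair of Ttr-high female libraries with low Grin2a also had the lowest Grin2b (2.55 and 3.14), Rora (0.11 and 0.47) and Prox1 (4.36 and 4.25) of the 47 adult libraries. The highest adult levels of H2-Aa, an antigen presentation gene, were 2.67 in the Ttr-high library labelled male Ts65Dn that went against its sex label and 2.42 in a female Ts65Dn library between the Ttr limits.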
